A study of Homo sapiens with 10 samples.

Results

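The genes described here encode the contractile apparatus of smooth muscle and were followed while human embryonic stem cells (hESCs) became hepatocyte-like cells. Of 9 genes listed by symbol (ACTA2, TAGLN, MYL9, CNN1, TPM1, TPM2, CALD1, ACTG2 and MYH11), 8 were found in a table of 12125 genes, each in 1 row, and MYH11, the smooth muscle myosin heavy chain, was not analysed here. RNA was sequenced from H1, an established hESC line, on 10 days, with 1 library per day and no replicate. The day 0 cells were undifferentiated hESCs kept on Matrigel in mTeSR1 medium, without the factors of the protocol named below. The cells of days 1, 2 and 3 had received Activin A at 100 ng per ml, those of days 5 and 7 FGF4 (30 ng per ml) and BMP2 (20 ng per ml), and those of days 9 and 11 a mixture of HGF and KGF (20 ng per ml each). The day 21 cells had received Oncostatin M (OSM) at 20 ng per ml. The day 13 library carries the label OSM, although the lengths of the steps in the protocol place it on the last day of HGF and KGF, as which it is treated here. Per the methods the medium changed as well, lacking insulin during Activin A, with insulin in the middle steps, and a hepatocyte medium during OSM. None of the 10 libraries is from a culture kept without the factors for the same time. The effects of time, medium and factor therefore cannot be told apart.

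In smooth muscle, force comes from myosin filaments that pull on filaments of smooth muscle actin, and the contraction is switched on when the regulatory light chain of myosin is phosphorylated. Tropomyosin lies along the actin filament, while caldesmon, calponin and transgelin bind actin and stabilise it or restrain the myosin. Many of these genes are transcribed by serum response factor (SRF) with its partners of the myocardin family. Several of them are also used outside smooth muscle, in the stress fibres of fibroblasts and of epithelial cells that pass through an epithelial-mesenchymal transition, and tropomyosin and caldesmon are made as muscle and non-muscle forms from the same gene, which values per gene do not separate. The study asked whether hESCs pass through a mesenchymal phase with stress fibres on the way to the hepatic fate, and these genes belong to that machinery.

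The values are GC-normalized scores and not read counts. Library totals ran from 2330948 to 2362740, with the same maximum of 18734 throughout, so that the depth of a single library cannot be read from the values, and every gene reached 26 or more in 2 libraries or more. High values lie on steps that the libraries share, and an equal value on different days, as for TPM1 on days 9 and 11, is such a step. Changes are given as differences of log2(value + 1), which understate the change of low genes. As a rough measure of error, the standard deviation (SD) of the differences between days 9 and 11, which share a medium, was taken over the 500 genes nearest in level. This SD was 1.42 for genes near 5, 0.63 near 20, 0.33 near 100 and 0.28 near 500, and any true change between these days is part of it. Stage markers changed with the labels. POU5F1, a pluripotency factor, had 4861 on day 0 and 5 on day 21, SOX17, an endoderm factor, had its highest value of 790 on day 3, and ALB, the gene of albumin, had 4866 on day 21.

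The 8 genes did not follow a common course. TAGLN, MYL9, CNN1 and TPM2 had their highest values under Activin A, on day 1 or day 3, and a lower maximum on day 13. TPM1, CALD1, ACTA2 and ACTG2 had their highest values later, between day 7 and day 13. All 8 were lower on day 21 than on day 13.

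**Figure D1:**
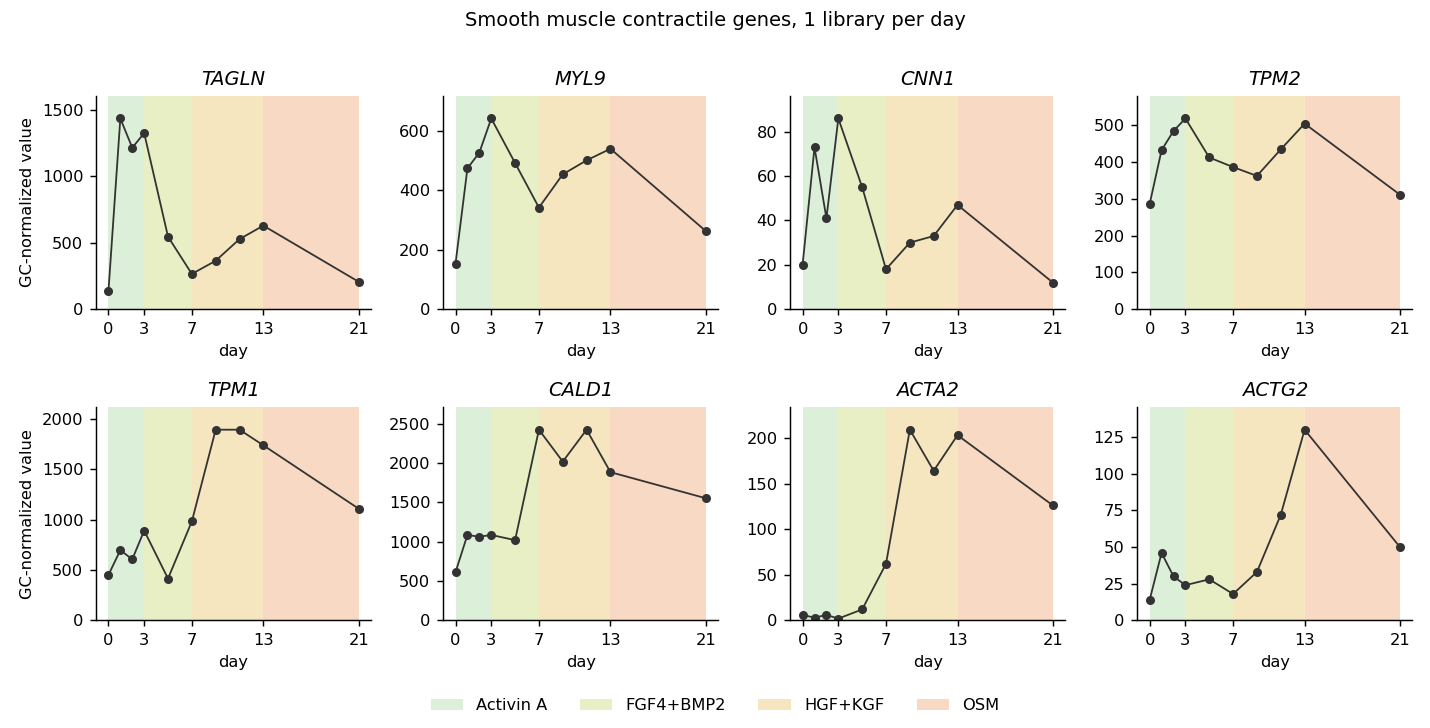
GC-normalized value (vertical axis, from 0, own scale for each gene) against day for the 8 contractile genes, with 1 library per point and shading for the factor given. TAGLN, MYL9, CNN1 and TPM2 in the upper row peak by day 3, whereas ACTA2 stays at 12 or below until day 5 and peaks at 209 on day 9.

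The actins came late. ACTA2, the smooth muscle alpha-actin (ENSG00000107796, minus strand of chromosome 10 from 90694831 to 90712530), had values of 6, 3, 6 and 2 on days 0, 1, 2 and 3. It then had 12 on day 5, 62 on day 7, 209 on day 9, 164 on day 11, 203 on day 13 and 126 on day 21. Values of this gene were therefore near the floor during Activin A, and the libraries of days 9, 11 and 13 were the highest. Its log2 change between days 3 and 7 was 4.39 against an SD of 0.79 at that level, and from day 7 to day 13 it was 1.70 against an SD of 0.34. The first of these rests on a value of 2, and it was 3.17 from day 2 and 3.26 with a pseudocount of 5. The differences among days 9, 11 and 13 were at most 0.35, with an SD of 0.28 for such a difference, so these days were not set apart. The coordinates are those of the deposited table, which names no build, whereas the notes of the submitters list hg19 and mm10 without a role.

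ACTG2, the gamma-actin of enteric smooth muscle (ENSG00000163017, plus strand of chromosome 2 from 74119441 to 74146802), had 14 on day 0, 46 on day 1, 30 on day 2 and 24 on day 3. It had 28 on day 5, 18 on day 7, 33 on day 9, 72 on day 11, 130 on day 13 and 50 on day 21. The day 13 library was the highest, and the rise came later than that of ACTA2. From day 7 to day 13 the log2 change of ACTG2 was 2.79 against an SD of 0.48, and from day 0 to day 1 it was 1.65 against an SD of 0.48, at values too low for the 2-fold rule given below. Since actins are alike in sequence, stretches of 50 bases were compared over all transcripts of GENCODE release 29. None of the 2972 stretches of ACTA2 and none of the 3993 of ACTG2, that is 0 of each, were found in the other gene or in ACTC1, ACTA1, ACTB or ACTG1. In further genes, 26 stretches of ACTA2 and 8 of ACTG2 were found. Only exact matches were sought, so reads that fit a related actin with mismatches were not covered. Other genes share exons with some of the 8, and the TruSeq RNA kit named in the methods does not mark strand. On the opposite strand, ACTA2-AS1 covers 17.3% and FAS 12.8% of the exon bases of ACTA2, PCSK7 covers 11.4% of those of TAGLN, and TPM1-AS covers 16.1% of those of TPM1. Reads from these stretches cannot be assigned to a strand. The shares are over all exons of a gene in GENCODE release 29. For ACTA2 the deposited interval is 17700 bases long against a span of 56266 there. Whether that interval includes the overlaps was not checked.

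SRF binds the CArG box, a motif of 10 letters with 6 middle letters that are A or T, and its matches were sought in the 250 bases before each start in the RefSeq promoters of GRCh38.p14. The motif reads as itself on the other strand, so that a match counts for both strands. Promoters were matched by symbol for 6 of the 9 genes (ACTA2, ACTG2, CALD1, CNN1, TPM1 and TPM2), with 11 entries, since some genes have several starts. Of these entries, 1 held a full CArG box, that of ACTG2, with 2 matches, against 1.16% of all 35116 promoters. With 1 middle letter allowed to differ, 3 of the 11 entries held a match, against 7.04% of all promoters, and they belong to ACTG2, ACTA2 and CALD1. The 2 actin promoters are printed because both actins rose in the same step. ACTG2 is given from chr2:73892758-73893007 on the plus strand and ACTA2 from chr10:88952774-88953023 on the minus strand, 5′ to 3′ up to the base before the start. Capitals mark the full boxes in ACTG2 and the boxes with 1 letter changed in ACTA2.
ACTG2: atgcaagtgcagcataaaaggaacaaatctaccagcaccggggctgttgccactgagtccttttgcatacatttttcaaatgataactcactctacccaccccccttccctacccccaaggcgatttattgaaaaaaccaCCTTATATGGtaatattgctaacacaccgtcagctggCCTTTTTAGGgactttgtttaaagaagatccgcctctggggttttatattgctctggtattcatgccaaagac
ACTA2: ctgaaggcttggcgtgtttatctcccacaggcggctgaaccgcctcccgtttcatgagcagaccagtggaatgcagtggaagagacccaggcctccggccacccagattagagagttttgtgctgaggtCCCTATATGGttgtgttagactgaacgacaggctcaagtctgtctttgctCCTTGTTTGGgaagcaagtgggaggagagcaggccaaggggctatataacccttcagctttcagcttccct
In ACTG2 the boxes begin 110 and 73 bases before the start, and in ACTA2 they begin 121 and 71 bases before it, so that each promoter holds a pair. A second ACTA2 entry, from a different start, held none. A match of letters shows neither binding nor its absence.

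MYL9, the regulatory light chain of smooth muscle myosin (ENSG00000101335, plus strand of chromosome 20 from 35169887 to 35178228), had 153 on day 0, 474 on day 1, 527 on day 2 and 642 on day 3. It had 492 on day 5, 342 on day 7, 454 on day 9, 501 on day 11, 540 on day 13 and 263 on day 21. Day 0 was the lowest library and day 21 the next, while the other days lay within about 2-fold of each other. Its log2 change between days 0 and 3 was 2.06 against an SD of 0.26, and most of it, 1.62, was reached by day 1. From day 13 to day 21 the change was -1.04 against an SD of 0.25.

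TAGLN, the gene of transgelin or SM22 alpha, an actin-bundling protein and an early marker of the smooth muscle lineage (ENSG00000149591, plus strand of chromosome 11 from 117070037 to 117075273), had 133 on day 0, 1434 on day 1, 1214 on day 2 and 1324 on day 3. It had 545 on day 5, 265 on day 7, 364 on day 9, 527 on day 11, 628 on day 13 and 206 on day 21. The 3 Activin A libraries stood above all others, day 13 came next, and the lowest libraries were those of days 0 and 21. The ratio of the values of days 1 and 0 was 10.8, and this log2 change of 3.42, against an SD of 0.25, ranked 31 from the top among 8629 genes compared over that day, an interval chosen after the values were seen. Its log2 change between days 3 and 7 was -2.32 against an SD of 0.28, and from day 7 to day 13 it was 1.24 against an SD of 0.25.

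CNN1, the gene of calponin 1, which binds actin and inhibits the myosin ATPase (ENSG00000130176, plus strand of chromosome 19 from 11649579 to 11661138), had 20 on day 0, 73 on day 1, 41 on day 2 and 86 on day 3. It had 55 on day 5, 18 on day 7, 30 on day 9, 33 on day 11, 47 on day 13 and 12 on day 21. Days 3 and 1 were the highest libraries and days 21 and 7 the lowest, at values where the spread is large. Its log2 change between days 0 and 3 was 2.05 against an SD of 0.44, and from day 3 to day 7 it was -2.20 against an SD of 0.46. With the day 2 library in place of day 3, the change of CNN1 from day 0 was 1.00, at values under 50 on both days.

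The tropomyosins differed from each other. TPM1 (ENSG00000140416, plus strand of chromosome 15) had 450 on day 0, 697 on day 1, 606 on day 2 and 891 on day 3. It had 415 on day 5, 982 on day 7, 1892 at days 9 and 11, 1737 on day 13 and 1108 on day 21. TPM1 was thus low again on day 5, before its maximum under HGF and KGF. From day 5 to day 9 its log2 change was 2.19 against an SD of 0.27. TPM2 (ENSG00000198467, minus strand of chromosome 9) moved least of the 8, by a ratio of 1.81 between its highest and lowest library. Its values were 286, 432, 484 and 518 on days 0, 1, 2 and 3, then 412, 386, 362, 434 and 504 on days 5, 7, 9, 11 and 13, and 311 on day 21. Day 3 and day 13 of TPM2 differed by 0.04 on the log2 scale against an SD of 0.28. The table lists a short interval for both genes, from 63353433 to 63354531 for TPM1 and from 35684748 to 35685540 for TPM2, which is 1099 and 793 bases long, whereas the genes span 29284 and 8130 bases in GENCODE release 29. Which of their many transcripts the values cover is not given in the sources used here.

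CALD1, the gene of caldesmon, which blocks myosin from actin until calcium rises (ENSG00000122786, plus strand of chromosome 7 from 134429003 to 134653153), had 612 on day 0, 1087 on day 1, 1064 on day 2 and 1087 on day 3. It had 1021 on day 5, 2426 on day 7, 2020 on day 9, 2426 on day 11, 1886 on day 13 and 1554 on day 21. The values formed steps, with day 0 lowest, days 1 to 5 alike and all later days higher. From day 5 to day 7, both with FGF4 and BMP2, the log2 change was 1.25 against an SD of 0.28. The later days differed from each other by no more than 0.36 up to day 13, against an SD of 0.30.

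The steps of the protocol were then compared. A gene was counted as higher or lower when its log2 difference was at least 1, a 2-fold change, and its larger value was at least 50. From day 0 to day 3, 3 of the 8 genes were at least 2-fold higher (TAGLN, MYL9 and CNN1) and 0 lower, and ACTA2 and ACTG2 were below 50 on both days. Of all 8934 genes that reached 50, 11.1% were higher and 9.07% lower by this rule. The median log2 change was 0.92 over the 8 genes and -0.04 over all 12125. TPM1 (0.98), TPM2 (0.85) and CALD1 (0.83) lay just under the threshold. The same 3 genes had already passed the rule on day 1, when 4.01% of all genes were higher and 4.71% lower. With day 2 in place of day 3, CNN1 no longer passed.

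From day 3 to day 7, 2 genes were at least 2-fold higher (ACTA2 and CALD1) and 2 lower (TAGLN and CNN1), beside 13.2% of all genes higher and 12.8% lower. The group thus divided in this step, with a median log2 change of -0.41, and -0.03 over all genes. MYL9 lay just under the threshold (-0.91). CNN1 was not counted when day 2 stood in for day 3, since both values were then below 50.

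From day 7 to day 13, 3 genes were at least 2-fold higher (ACTG2, ACTA2 and TAGLN) and 0 lower, beside 9.65% and 8.21% of all genes. The median log2 change was 1.03, against -0.04 over all genes, and 7 of the 8 had a positive value. Of all genes that reached 50, 46.5% had positive changes over this step. CNN1 had a log2 change of 1.34 but stayed below 50, and CALD1 was the exception with -0.36. With day 11 in place of day 13, the change of TAGLN was 0.99 and fell short of the rule.

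From day 13 to day 21 all 8 genes had negative changes, from -0.28 for CALD1 to -1.88 for CNN1, with a median of -0.86 against -0.10 over all genes. By the 2-fold rule 3 were lower (TAGLN, ACTG2 and MYL9) and 0 higher, beside 9.08% and 8.57% of all genes. The change of CALD1 (SD 0.29) was within the spread between days 9 and 11. With day 11 in place of day 13 all 8 were still lower on day 21, but only TAGLN passed the rule. With median-of-ratios scaling, the change of MYL9 was -0.95 and no longer passed. From day 3 to day 13, across both middle steps, ACTA2 (6.09) and ACTG2 (2.39) were higher and TAGLN (-1.07) lower, beside 16.5% and 15.9% of all genes. Over the whole course from day 0 to day 21, 4 genes were at least 2-fold higher (ACTA2, ACTG2, CALD1 and TPM1) and 0 lower, beside 23.9% and 26.4% of all genes. TPM2 ended near its start, with a log2 change of 0.12 against an SD of 0.26, and CNN1 ended at -0.69 against an SD of 0.65.

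**Figure D2:**
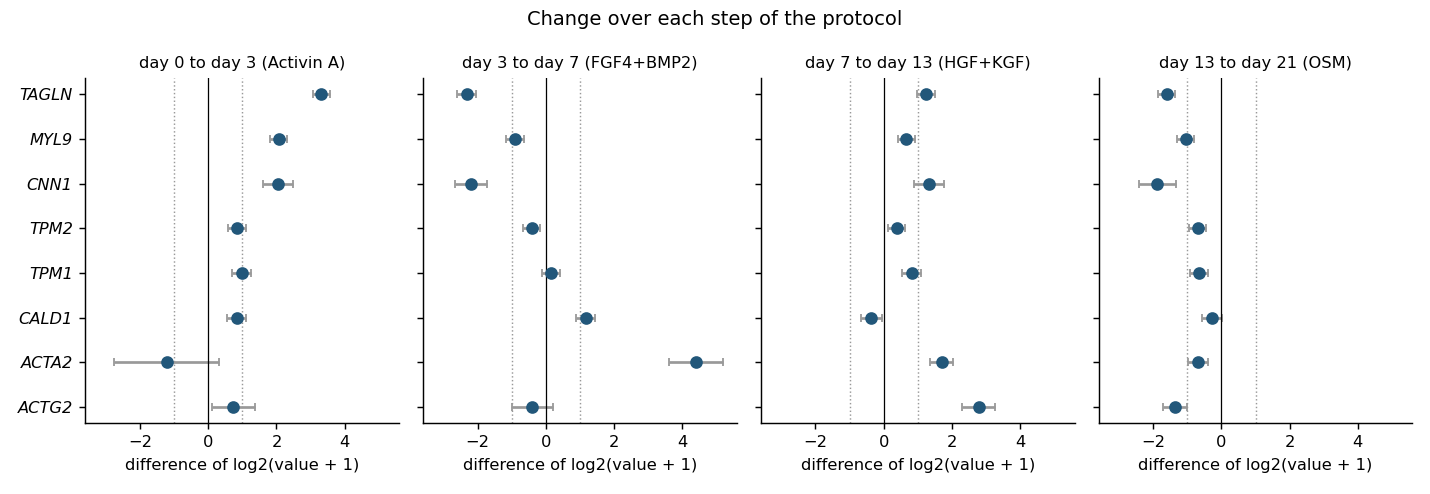
Difference of log2(value + 1) over each of the 4 steps for each gene (points), with bars of 1 SD of the differences between days 9 and 11 at that level and dotted lines at the 2-fold threshold. In the last panel all 8 points lie left of 0, and in the second panel ACTA2 and CALD1 lie to the right while TAGLN and CNN1 lie to the left.

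The likeness of the profiles was described by Pearson's r of log2(value + 1) over the 10 libraries, which share the scale of the table. Among the 28 pairs, r ran from -0.53 to 0.91 with a median of 0.39, and it was at least 0.7 in 9 pairs. These 9 pairs fell into separate sets. TAGLN, MYL9, CNN1 and TPM2 were alike, with r from 0.75 (MYL9 and CNN1) to 0.91 (MYL9 and TPM2), and ACTA2, TPM1 and CALD1 were alike, with r from 0.80 to 0.85. ACTG2 reached at most 0.64, with TPM1. Across the sets, ACTA2 had an r of -0.44 with TAGLN and of -0.53 with CNN1. Without the day 0 library, which is low for nearly all of these genes, r of ACTA2 and TAGLN was -0.78 and r of MYL9 and CALD1 moved from 0.36 to -0.35.

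**Figure D3:**
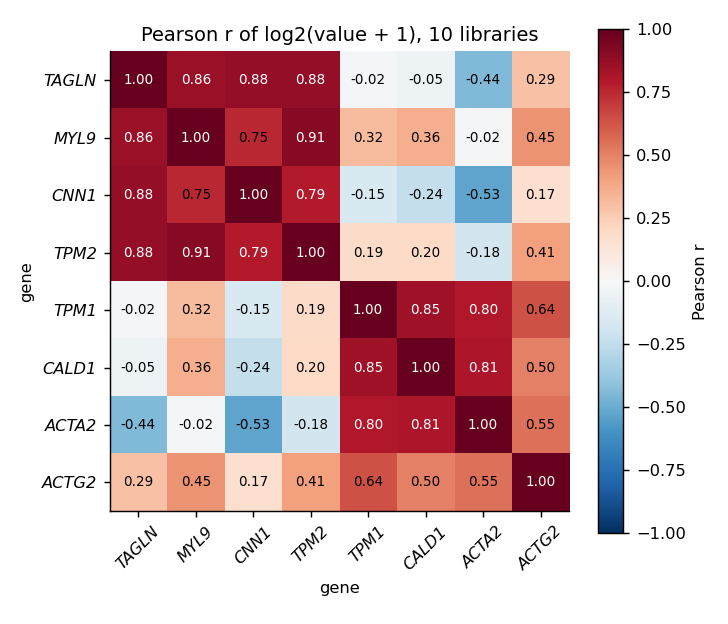
Pearson r of log2(value + 1) over 10 libraries for each pair of the 8 genes, from -1 in blue to 1 in red. The upper left block of TAGLN, MYL9, CNN1 and TPM2 holds values from 0.75 to 0.91, and the block of TPM1, CALD1 and ACTA2 holds values from 0.80 to 0.85.

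In the whole table, the profile most like that of TPM2 was that of MYL9, with an r of 0.915. The 3 genes nearest to ACTA2 were SERP1 (0.992), H19 (0.989) and NAALAD2 (0.988), of which H19, an imprinted noncoding RNA, had 1 on day 3 and 18734 on day 13. Those nearest to TAGLN were SHROOM2 (0.936), LRRC3 and C17orf103, and SHROOM2, a regulator of the actin cytoskeleton, had 63 on day 0 and 120 on day 3. TUBA1A, an alpha-tubulin, was nearest to CNN1 (0.895), CAPNS1, a calpain subunit, was nearest to MYL9 (0.933), NIT2 to TPM1 (0.977), ZNF592 to CALD1 (0.975) and ZNF704 to ACTG2 (0.933). Over 10 points and many genes high values of r are common, and they describe timing only.

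The non-muscle counterparts of these proteins, from other genes, were set beside them. Of 14 such genes, 3 were at least 2-fold higher on day 3 than on day 0 and 0 lower, beside 11.1% and 9.07% of all genes. TAGLN2 had 205 on day 0, 247 on day 1, 733 on day 2 and 1249 on day 3, so that its increase came after that of TAGLN, which was at its maximum on day 1. MYL12A, a non-muscle regulatory light chain, had 466 on day 0 and 1490 on day 3, and MYL12B had 436 and 822. ACTG1, a cytoplasmic actin, had 4855 on day 0, 18734 from day 1 to day 7 and 1887 on day 21. ACTB had 18734, the maximum of every library, up to day 13 except on day 5 (4855), and it had 3428 on day 21. Several genes held 18734 in the same library, such as ACTB, AFP and TTR on day 13. The size of a change to or from this top step cannot be read, which applies to the 2-fold calls of ACTG1 and ACTB. TPM3 and TPM4 had 1158 each on day 0 and 1328 and 1640 on day 3. From day 13 to day 21, 13 of the 14 had negative changes, with a median log2 change of -0.58. Of all genes that reached 50, 46.1% had positive changes over this step. ACTB alone passed the 2-fold rule, downwards, beside 9.08% of all genes. Negative changes over this step were thus also found among the cytoplasmic forms.

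Of 12 regulators of smooth muscle genes, 11 were found, of which 1 passed the 2-fold rule upwards over days 0 to 3 (11.1% of all genes) and 3 passed it downwards over days 3 to 7 (12.8% of all genes). SRF had 207 on day 0, 418 on day 1, 260 on day 2 and 288 on day 3, and it lay between 53 and 128 from day 5 on. Its highest library was thus that of day 1, as for TAGLN, but TAGLN changed little from day 1 to day 2 (-0.24 against an SD of 0.27). SRF was at its lowest on day 21, with a log2 change of -1.95 from day 0. MYOCD, the gene of myocardin, had 5 on day 0, 57 on day 3, 14 on day 5, 3 on day 13 and 24 on day 21. It was the regulator that passed upwards by day 3 (3.27), and it passed downwards by day 7 (-2.05) together with SRF (-1.16) and CSRP2 (-1.13). The myocardin relatives MKL1 and MKL2 had their highest values late, MKL1 with 64 on day 0 and 184 on day 11 and MKL2 with 97 on day 0 and 122 on day 9. From day 7 to day 13, 3 of the 11 were at least 2-fold higher and 0 lower, beside 9.65% and 8.21% of all genes. They were TGFB1I1 (22 to 104), CSRP1 (49 to 194) and CSRP2 (62 to 142), LIM-domain proteins that act as cofactors of SRF or bind the actin cytoskeleton. Over the 11, of which 9 reached 50, the median log2 change was -0.02, and 6 had negative changes. Positive changes were found in 46.5% of all genes that reached 50. SRF itself had 128 on day 7 and 96 on day 13, a log2 change of -0.41.

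Of 14 other smooth muscle genes, 8 were found. From day 13 to day 21, 5 of the 8 were at least 2-fold higher and 1 lower, beside 8.57% and 9.08% of all genes, with a median log2 change of 1.06. SMTN, the gene of smoothelin, had 44 at days 0 and 7, 247 on day 13 and 634 on day 21. LMOD1, a leiomodin that nucleates actin filaments in smooth muscle, had 9 on day 7, 32 on day 13 and 66 on day 21, and SYNPO2 had 2, 39 and 85 on these days. SYNM, the gene of synemin, had 11 on day 13 and 132 on day 21. ITGA8, an integrin chain, was the gene that was lower, with 314 on day 13 and 143 on day 21. PDLIM7 had 342 and 210 on these days (-0.70) and SORBS2 had 124 and 130. From day 7 to day 13, 5 of the 8 reached 50. Of these, 4 were at least 2-fold higher and 0 lower, beside 9.65% and 8.21% of all genes. Among the 4 were ITGA8, SMTN and SORBS2, in the same step as ACTA2 and ACTG2. From day 0 to day 3, 3 of the 8 reached 50. SYNM (14 to 142) and PDLIM7 (122 to 299) passed the rule upwards and 1 gene downwards, beside 11.1% and 9.07% of all genes. The defining gene DES was not analysed here.

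**Figure D4:**
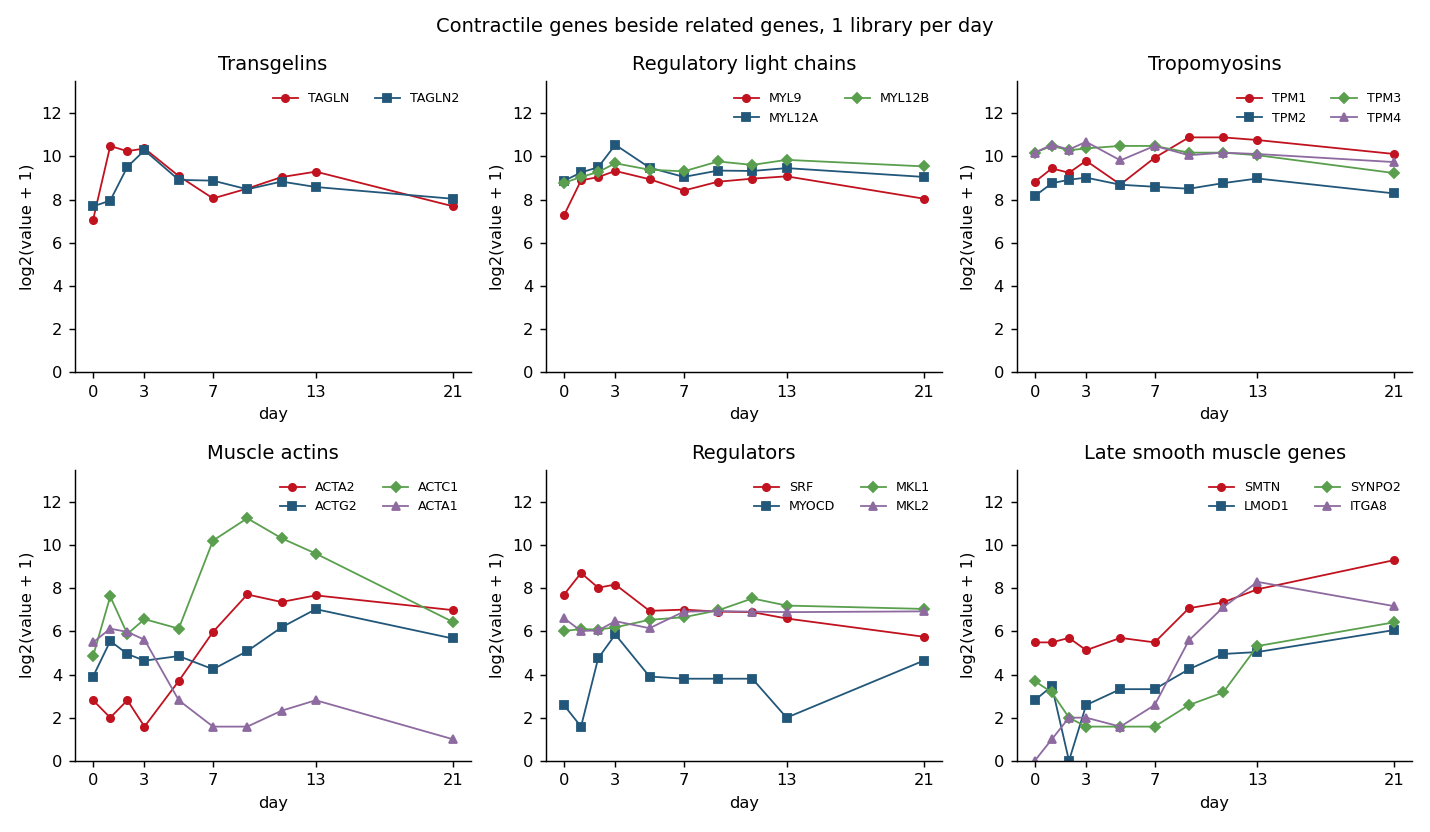
log2(value + 1) against day for contractile genes beside related genes, 1 library per point. TAGLN jumps on day 1 while TAGLN2 rises up to day 3, and SMTN climbs to its highest value of 634 on day 21, after the maximum of ACTA2.

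Markers of other cells moved in the same steps. Of 7 fibroblast and stromal markers, all found, 5 were at least 2-fold higher from day 7 to day 13 and 0 lower, beside 9.65% and 8.21% of all genes. Their summed value was 2522 on day 0, 415 on day 3, 4262 on day 7, 19636 on day 13 and 22543 on day 21, with LUM listed at 0 on days 0 to 3. THY1 made up most of the sum on day 0 and went the other way, with 2164 on day 0, 147 on day 3, 10 on day 7 and 12 on day 21. COL3A1 had 21 on day 3, 2643 on day 7 and 6502 on day 13, and its r with ACTA2 was 0.93 and with TAGLN -0.21. Of 7 pericyte and stellate cell markers, 5 were found, and PDGFRB had 42 on day 7, 290 on day 13 and 518 on day 21, and CSPG4 24, 108 and 162, whereas RGS5 was highest on day 5 (4858) and LRAT had 612 on day 0 and 1 on day 13. Their summed value lay between 921 and 5984. Of 4 endothelial markers, 3 were found, and all 3 were at least 2-fold higher from day 7 to day 13, with a summed value of 342 and 1864. From day 0 to day 3, only 2 of the 7 fibroblast markers and 3 of the 5 pericyte markers reached 50. Among these, RGS5 alone was higher by the rule and 1 of each list was lower, beside 11.1% and 9.07% of all genes. The others could not pass the rule, among them COL3A1 with 0 on day 0 and 21 on day 3. In bulk libraries, more cells of a type and more RNA per cell cannot be told apart, and the part of these cells in the values of the contractile genes was not tested.

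Genes of striated muscle share actin and myosin families with the 8 genes. Of 19 such genes, 10 were found, and from day 3 to day 7, 4 were at least 2-fold higher and 1 lower, beside 13.2% and 12.8% of all genes. ACTC1, the cardiac alpha-actin, had 28 on day 0, 94 on day 3, 1186 on day 7, 2434 on day 9, 781 on day 13 and 86 on day 21, and TTN, the gene of titin, had 99 on day 3, 2638 on day 7 and 198 on day 21. MYL7, an atrial light chain, was listed at 0 on day 0 and had 169 on day 3 and 24 on day 7. The summed value of the 10 genes was 792 on day 3, 4422 on day 7, 1678 on day 13 and 443 on day 21, and r of ACTC1 was 0.90 with CALD1, 0.84 with TPM1 and 0.74 with ACTA2. From day 13 to day 21, 4 of these genes were lower and 0 higher by the 2-fold rule, beside 9.08% and 8.57% of all genes. These 4 were the only ones of the 10 that reached 50 in that step. MYH6, MYH7 and TNNT2 were not analysed here.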

How the data were processed

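RNA of 10 libraries, 1 per day, was analysed from the series table. The notes of the submitters name Bowtie2 2.2.0 and RSEM 1.2.17, and per the methods the authors normalized for GC content with EDASeq. The deposited values are scores, whole numbers after normalization, so no count model was used. Columns were matched to samples by title, and 0 sample columns were left unused. Differences of log2(value + 1) were taken. Promoters came from RefSeq (GRCh38.p14) and transcripts from GENCODE release 29. No test was run, since each day has 1 library. The members and all gene lists were chosen with earlier results of these data known. The rule for named genes took the members, the 4 largest changes and the defining genes of each list, the 3 genes most like each member, of which at least 1 is printed, and stage markers, and other genes named were chosen after their values were seen, as were the intervals from day 0 to day 1 and from day 3 to day 13. Alternatives were pseudocounts of 0.1 and 5, no minimum value and a minimum of 200, a 4-fold rule, median-of-ratios scaling, other correlations and, chosen after seeing the data, day 2 for day 3 and day 11 for day 13. The values of 1 gene of the lists are not reported here. The code was tested on simulated data. Python 3.11.15, numpy 2.4.6, pandas 2.3.3 and matplotlib 3.10.9 were used.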

Additional observations from a re-analysis of the deposited data

How the results depend on the processing

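No paired analysis was possible because each day has 1 library. Among recomputed counts of contractile genes, 58 stayed within 1.5 times the count given and 10 did not. Counts of 0 in both settings and counts that fell from 3 to 2 are among the 58, so this tally does not show that single genes kept their call. With a 4-fold rule, 1 gene was higher from day 3 to day 7, 1 from day 7 to day 13 and 1 from day 0 to day 21, beside 5.63%, 3.08% and 11.9% of all genes, and 0 were lower from day 13 to day 21 (1.62%). With a minimum value of 200, 1 gene was higher and 1 lower from day 3 to day 7 (15.1% and 13.7% of all genes), and 2 were higher from day 0 to day 21 (28.1%). Without a minimum value, 1 gene, ACTA2, was lower from day 0 to day 3 (10.3%). With neighbouring libraries (day 2 for day 3 and day 11 for day 13, chosen after seeing the data), 1 gene was lower from day 3 to day 7 (14.2%) and 1 from day 13 to day 21 (10.8%). Over day 0 to day 3 the median was 1.52 among the genes that reached 50, and over day 7 to day 13 it was 0.74 among those that reached 200. Median-of-ratios scaling shifted all log2 changes by 0.01 to 0.09 over the steps and by 0.19 from day 0 to day 21, with no change of sign for any of the 8 genes, and MYL9 no longer passed from day 13 to day 21 (-0.95). The depth of each single library cannot be read from the values, and values below 50 carry the largest spread.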

Other observations

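Of 20 genes of stress fibres and focal adhesions, all found, 5 were at least 2-fold higher from day 0 to day 3 and 0 lower, beside 11.1% and 9.07% of all genes. FLNC, a muscle filamin, had 58 on day 0, 276 on day 3, 1107 on day 5 and 980 on day 21, and PALLD, the gene of palladin, had 44, 102, 94 and 345 on these days. VCL, the gene of vinculin, had 1490 on day 0, 2970 on day 1, 1640 on day 2, 2640 on day 3 and 634 on day 5. Its log2 change from day 0 was 0.99 by day 1 and 0.82 by day 3, both under the threshold. Unlike TAGLN, it lay near its day 0 value on day 2. From day 7 to day 13, 5 of the 20 were higher and 0 lower (9.65% and 8.21% of all genes), among them PALLD (114 to 450) and PTRF (132 to 355), and from day 13 to day 21, 1 was higher (FLNC) and 1 lower (ACTN1, 902 to 442), beside 8.57% and 9.08% of all genes.

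Of 18 genes of contraction signalling, 17 were found. From day 0 to day 3, 1 was at least 2-fold higher and 2 lower among 14 that reached 50, and over days 3 to 7 it was 2 and 1 among 14, beside 11.1% and 9.07%, and 13.2% and 12.8%, of all genes. RHOB, a small GTPase, had 39 on day 0, 450 on day 1, 164 on day 2 and 70 on day 3, so that the day 1 library stood apart, as for SRF. RHOC had 146 on day 0, 414 on day 3, 934 on day 13 and 712 on day 21. MYLK, the kinase of the regulatory light chain, had 100 on day 0, 37 on day 7 and 86 on day 13. From day 7 to day 13, MYLK was the 1 gene higher among 13 that reached 50, with 0 lower, beside 9.65% and 8.21% of all genes. PRKG1, a cGMP-dependent kinase that relaxes smooth muscle, had 120 on day 0, 56 on day 3 and 4 on day 21. From day 13 to day 21, 0 of the 13 that reached 50 passed the rule in either direction, beside 8.57% and 9.08% of all genes. Of the 17, 11 had negative changes, with a median of -0.31. Positive changes were found in 46.1% of all genes that reached 50.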
